A study of Mus musculus with 7 samples.

Results

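Described here are 9 genes whose products are secreted into the uterine lumen or stand on the surface of its lining: Clca1, Prap1, Lypd2, Fam3b and the mucins Muc1, Muc4, Muc15, Muc16 and Muc20. They were chosen by symbol, and 8 of them were found among the 24964 genes of the expression table. Muc16 is not analysed here. RNA sequencing was done on whole uterus of mice aged 12 weeks and recorded as in diestrus, the quiet stage of the estrous cycle. The control group, PCx, has 3 libraries of genotype Pgrcre/+ (numbered 1, 2 and 4), and the group PFx has 4 libraries of genotype Pgrcre/+Foxl2LsL/+ (numbered 1 to 4). All 7 libraries carry the Pgrcre allele, which places Cre recombinase under the progesterone receptor gene, so Cre is active in uterine epithelium, stroma and muscle alike and 1 copy of that gene carries the insertion in both groups. By its title the study is on raised FOXL2, a transcription factor with a forkhead domain, and LsL commonly stands for a stop cassette that Cre removes. The labels name no separate litters or pools, so the spread between libraries may be partly technical.

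The luminal epithelium of the uterus carries a coat of mucins and releases fluid and protein into the cavity, and both change with estrogen and progesterone. Mucins are long proteins dense in O-linked sugar. Muc1 is the main transmembrane mucin of the mouse uterus and is known to be lost from the surface before an embryo attaches. Clca1, also called gob-5, is a secreted protein best known from goblet cells, the mucus-making cells of gut and airway. Prap1, also called Upa, encodes a small proline-rich secreted protein of uterine and intestinal epithelium.

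Expression is given as FPKM, fragment counts scaled to the length of the gene and the depth of the library, and every mean is followed by its SD over the 3 PCx or 4 PFx libraries. The fragments recovered from these values gave denominators of 47800000 to 67300000 per library. Foxl2 itself lay at 11.1, 19.3 and 12.9 FPKM in PCx 1, 2 and 4 and at 12.7, 14.3, 14.8 and 17.2 FPKM in PFx 1 to 4 (log2 difference 0.06, SE 0.18; limma, Benjamini-Hochberg adjusted p 0.818). The groups overlapped, so the level of Foxl2 does not bear out the label. Whether transcript from the Foxl2LsL allele holds the bases counted for Foxl2 is not given in the sources used here and was not tested, and PCx and PFx stand throughout for libraries grouped by their labels. Some libraries stood apart in tissue markers. The summed FPKM of 5 fat cell genes was 0.34, 4.04 and 49.2 in PCx 1, 2 and 4 and 1.44, 67.9, 129 and 8.91 in PFx 1 to 4. Ovgp1, an oviduct glycoprotein gene, was at 291 FPKM in PCx 2 and at 1.65 to 19.7 FPKM in the other 6. The mean of 18 genes of simple and luminal epithelium, on the log2(FPKM + 1) scale, was 6.35, 5.82 and 5.43 in PCx 1, 2 and 4 and 5.96 to 6.29 in PFx. In whole tissue, fewer cells of a type and less RNA per cell cannot be told apart.

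Clca1, Prap1, Lypd2 and Fam3b were chosen because they were far higher in PFx than in PCx, so their differences are a description with no test. The mucins were set beside them as a family. The whole list was drawn up with results of these data known, which holds for the mucins too. The adjusted p values given for the mucins below, under any setting, are therefore also a description. By group means the first 4 were 25.2 to 54.6 times higher in PFx and the 4 mucins 1.63 to 2.33 times, a gap that the choice of the first 4 fixes. A gene was tested where its mean over the 7 libraries reached 1 FPKM, which 7 of the 8 did. Lypd2 and Fam3b reached it through PFx alone. The fit over 13334 genes called 4 of the 7 higher, beside 16.7% of all tested genes. Every PFx library lay above every PCx library in 5 of the 7, beside 19.7%, and 0 of the 7 had every PFx library below every PCx library, beside 27.9%. Since this contrast chose the list, nothing is read from these shares.

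**Figure D1:**
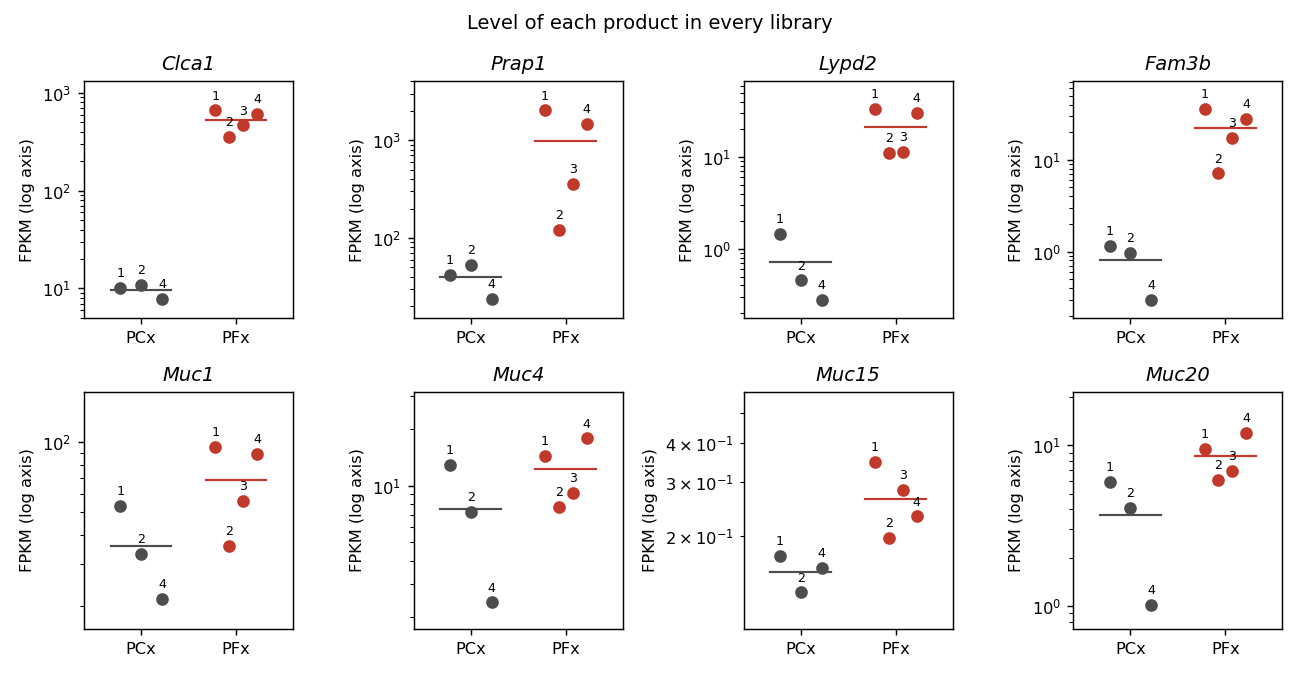
FPKM of each of the 8 genes (log axis, scaled per gene) in the 3 PCx and 4 PFx libraries. Points are libraries, marked by their number, and lines are group means. Clca1, Prap1, Lypd2 and Fam3b lie apart between the groups, Muc1 and Muc4 overlap, and PFx 2 is the lowest PFx library in all 8 panels.

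Clca1 (chromosome 3, 145003817 to 145032776, minus strand; all gene positions are GRCm38, from GENCODE M21) had 10.1, 10.9 and 7.74 FPKM in PCx 1, 2 and 4. It was at 661, 352, 464 and 613 FPKM in PFx 1 to 4. The lowest PFx library lay 32.3 times above the highest PCx library, and the PFx libraries differed among themselves by 1.88 times. It averaged 9.57 ± 1.65 FPKM in PCx against 523 ± 141 FPKM in PFx, a log2 difference of 5.60 (SE 0.22). Ordered by FPKM among all genes of the table, Clca1 stood at places 6131 to 7567 in PCx and at places 57 to 93 in PFx. Between 1490 and 2153 fragments lay on it in each PCx library, so its low level there was well measured.

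Prap1 (chromosome 7, 140093395 to 140097200, plus strand, GRCm38) was at 41.9, 53.0 and 23.6 FPKM in PCx 1, 2 and 4 and at 2023, 122, 360 and 1474 FPKM in PFx 1 to 4. All PFx values lay above all PCx values, but PFx 2 stood only 2.3 times above the highest PCx library while PFx 1 stood 16.6 times above PFx 2. Prap1 was the most uneven of the 8 genes in PFx, with a mean of 995 ± 904 FPKM against 39.5 ± 14.9 FPKM in PCx. The log2 difference was 3.97 (SE 0.92). In PFx 1 and PFx 4 it was the gene at place 5 of the whole table. It was at place 281 in PFx 2 and 104 in PFx 3, and at places 975 to 2787 in PCx. It overlaps Fuom, a gene of fucose metabolism on the opposite strand, with 169 shared exon bases of the 620 in Prap1. Fuom was at 6.41 ± 0.669 FPKM in PCx and 15.3 ± 2.55 FPKM in PFx. The use of strand in counting is not given in the sources used here, so fragments in shared bases cannot be assigned to either gene.

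Lypd2 encodes a member of the LY6 and PLAUR domain family, small cysteine-rich proteins of the cell surface (chromosome 15, 74732247 to 74734329, minus strand, GRCm38). It was at 1.44, 0.453 and 0.279 FPKM in PCx 1, 2 and 4 and at 33.1, 11.1, 11.4 and 30.1 FPKM in PFx 1 to 4. PFx 1 and 4 were close to each other and well above PFx 2 and 3, which also lay close together. The lowest PFx library was 7.72 times above the highest PCx library, and the log2 difference was 3.59 (SE 0.44). Only 9 to 45 fragments lay on Lypd2 in each PCx library, so counting error is part of its spread there.

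Fam3b encodes PANDER, a secreted cytokine-like protein first known from pancreatic islets (chromosome 16, 97470965 to 97514816, minus strand, GRCm38). It was at 1.15, 0.964 and 0.298 FPKM in PCx 1, 2 and 4 and at 35.5, 7.11, 17.3 and 28.1 FPKM in PFx 1 to 4. The PFx libraries spanned 5.0 times, all above PCx, and the log2 difference was 3.50 (SE 0.49). Between 19 and 71 fragments lay on it in each PCx library.

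Muc1 (chromosome 3, 89229057 to 89233381, plus strand, GRCm38) was at 53.1, 33.3 and 21.4 FPKM in PCx 1, 2 and 4 and at 95.0, 36.0, 56.0 and 88.6 FPKM in PFx 1 to 4. PFx 2 lay inside the PCx range and the other 3 PFx libraries lay above it. On average it had 35.9 ± 16.0 FPKM in PCx against 68.9 ± 27.8 FPKM in PFx, a log2 difference of 0.91 (SE 0.40). It did not pass the threshold of 0.05 (limma, Benjamini-Hochberg adjusted p 0.101 over all tested genes).

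Muc4, a large membrane mucin (chromosome 16, 32735886 to 32782391, plus strand, GRCm38), was at 12.9, 7.25 and 2.4 FPKM in PCx 1, 2 and 4 and at 14.4, 7.68, 9.17 and 17.8 FPKM in PFx 1 to 4. The groups overlapped, since PFx 2 and 3 lay below PCx 1, and the log2 difference of 0.79 (SE 0.47) did not pass (limma, Benjamini-Hochberg adjusted p 0.214). Without PCx 4 it was 0.24 (limma, Benjamini-Hochberg adjusted p 0.607), against 1.26 without PCx 1. Muc20, a membrane mucin encoded next to it (chromosome 16, 32777419 to 32797435, minus strand, GRCm38), was at 5.91, 4.09 and 1.02 FPKM in PCx 1, 2 and 4 and at 9.48, 6.08, 6.91 and 11.9 FPKM in PFx 1 to 4. Its groups were apart by 1.03 times at the nearest pair, PFx 2 and PCx 1. Its log2 difference of 1.17 (SE 0.41) did not pass the threshold (limma, Benjamini-Hochberg adjusted p 0.0531). Muc20 passed under 5 of 18 other settings, with values for each at the end. The genes run toward each other and share 627 exon bases, of 11757 in Muc4 and 4027 in Muc20, and the part of fragments in shared bases in their values was not tested.

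Muc15, a small membrane mucin (chromosome 2, 110721340 to 110739527, plus strand, GRCm38), stayed below 1 FPKM throughout and was not tested. It was at 0.173, 0.132 and 0.158 FPKM in PCx 1, 2 and 4 and at 0.349, 0.198, 0.282 and 0.232 FPKM in PFx 1 to 4. These values rest on 29 to 36 fragments in PCx and 31 to 75 in PFx. The groups did not overlap, but PFx 2 lay only 1.14 times above PCx 1, with 31 against 36 fragments, a gap not detectable at this depth.

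By length-scaled level the order in PCx was Prap1, Muc1, Clca1, Muc4, Muc20, Fam3b, Lypd2 and Muc15. Neighbours in it overlapped in their libraries, except Muc1 with Clca1 and Lypd2 with Muc15, so most of it is not resolved. In PFx the order was Prap1, Clca1, Muc1, Fam3b, Lypd2, Muc4, Muc20 and Muc15. Neighbours in the PFx order overlapped in their libraries for Prap1 with Clca1, for Fam3b with Lypd2, for Lypd2 with Muc4 and for Muc4 with Muc20, and did not overlap for the other neighbours, though Muc1 and Fam3b nearly met at 36.0 and 35.5 FPKM. Clca1 thus passed Muc1, from 9.57 against 35.9 FPKM in PCx to 523 against 68.9 FPKM in PFx.

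**Figure D2:**
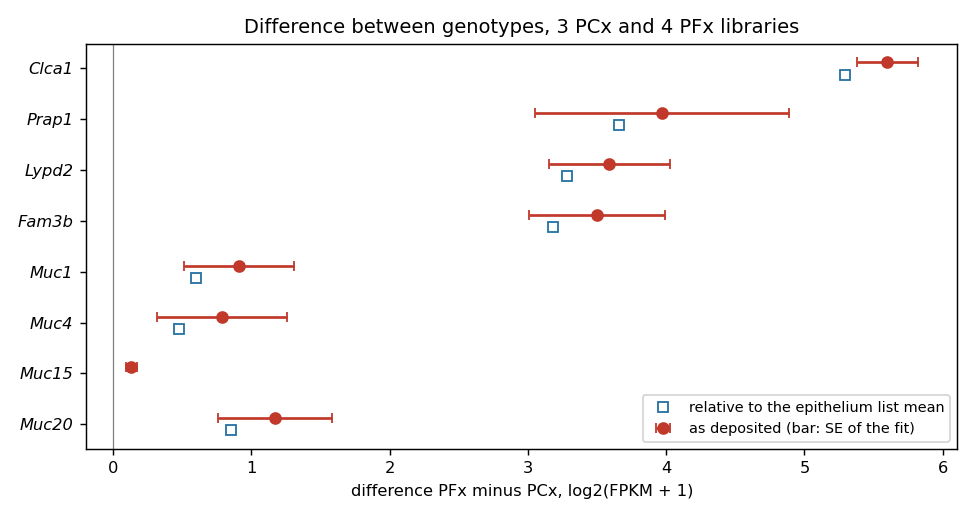
Difference between PFx and PCx on the log2(FPKM + 1) scale for each gene. Red points are values as deposited with the SE of the fit (Muc15 from the fit with no filter), and open squares are values after subtracting each library's epithelium list mean, not drawn for Muc15, where that value is -0.18. The first 4 genes lie between 3.18 and 5.60 by either measure and the mucins reach at most 1.17.

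The 7 tested genes also differed among the PFx libraries, and in a partly shared order. PFx 2 was the lowest PFx library for 7 of 7 tested members, beside 33.2% of all tested genes. PFx 1 and 4 both lay above PFx 2 and 3 for 7 of 7, beside 27.5%. In the controls PCx 4 was the lowest for 7 of 7, beside 45.8%. These counts are a description, since the order was known when the list was made. The depth of the rise and fall was not shared: PFx 1 stood above PFx 2 by 16.6 times for Prap1, 5.0 times for Fam3b, 2.97 times for Lypd2, 2.64 times for Muc1, 1.88 times for Clca1, 1.87 times for Muc4 and 1.56 times for Muc20.

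Fat markers moved broadly the other way, highest in PFx 3, next in PFx 2 and, among controls, highest in PCx 4 (values above). With the fat list mean as a covariate, chosen after seeing the data, the log2 differences were 5.80 for Clca1, 4.78 for Prap1, 4.03 for Lypd2 and 3.90 for Fam3b. Those of Muc1, Muc4 and Muc20 were 1.28, 1.22 and 1.52, and all 3 then passed (limma, Benjamini-Hochberg adjusted p 0.00745, 0.0219 and 0.00771). Over all its settings the adjusted p (limma, Benjamini-Hochberg) ranged from 0.00745 to 0.259 for Muc1, from 0.0219 to 0.607 for Muc4 and from 0.00771 to 0.125 for Muc20. Estrogen-raised epithelial genes moved with the members: their list mean was 5.04, 4.04, 4.52 and 4.98 in PFx 1 to 4 and 4.06, 3.93 and 3.03 in PCx 1, 2 and 4. The part of fat or of hormone state in the order was not tested.

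**Figure D3:**
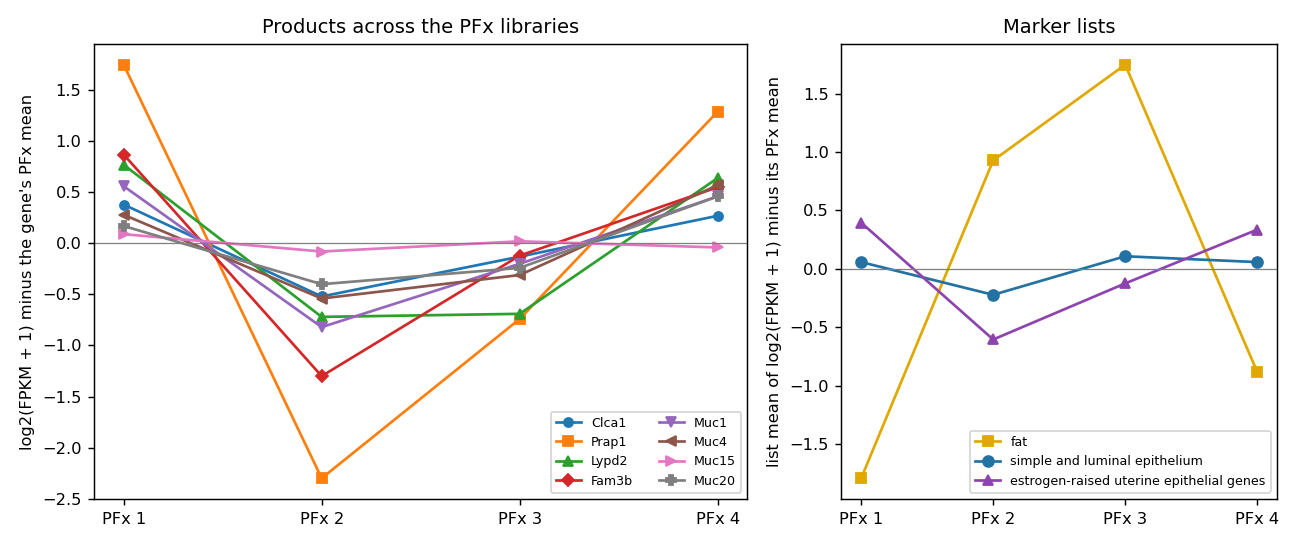
Left, each gene in the 4 PFx libraries as log2(FPKM + 1) minus its PFx mean. Right, the mean of 3 marker lists in the same libraries, each minus its PFx mean. Prap1 spans 4.04 on the log2 scale, from PFx 2 to PFx 1, and the epithelium list spans little. The fat list is highest in PFx 3 and next in PFx 2, while every product is lowest in PFx 2.

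Epithelial content was set beside the members as the level of Epcam, an epithelial adhesion gene, and as the epithelium list mean. Epcam is 1 gene of that list, whose 18 genes had log2 differences from -1.97 (Calb1) to 1.95 (Elf3). Shares of the Epcam level therefore depend on the choice of this gene. Epcam was at 171, 122 and 61.2 FPKM in PCx 1, 2 and 4 and at 164, 106, 129 and 134 FPKM in PFx 1 to 4 (log2 difference 0.27, SE 0.32; limma, Benjamini-Hochberg adjusted p 0.524). Muc1 came to 31.1, 27.2 and 34.9% of the Epcam level in PCx 1, 2 and 4. It came to 57.8, 34.0, 43.4 and 66.4% in PFx 1 to 4. On this scale the PCx libraries, which differed by 2.49 times in Muc1 itself, lay close together, and PFx 2 lay among them. Clca1 came to 9.15 ± 3.37% and 388 ± 55.4% of Epcam, and Prap1 to 35.5 ± 9.74% and 682 ± 567%. Muc20 came to 2.83 ± 1.0% and 6.44 ± 1.64%, with every PFx library above every PCx library. Relative to the epithelium list mean, the log2 differences were 5.29 for Clca1, 3.66 for Prap1, 3.28 for Lypd2, 3.18 for Fam3b, 0.60 for Muc1, 0.48 for Muc4 and 0.85 for Muc20. The subtraction lowers every gene by the same amount. In that fit adjusted p rested little on a gene's own spread between libraries. Arg1, at SE 0.99 and adjusted p 0.0205 as deposited, came to 7.67e-29 there (limma, Benjamini-Hochberg). Calls gained or lost in it are a description only. Muc15, below the filter, had 0.13 as deposited and -0.18 relative to the list mean.

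Start-region sequence could be read for 4 of the 8 genes, from RefSeq on GRCm38.p6. The 250 bases before the start are shown for Prap1, Muc1 and Muc20, which were all lowest in PFx 2 and in PCx 4 within their groups but differ in the size of their change. Capitals mark matches, on either strand, to TGTTTAC (forkhead), GTCAAGG (a FOXL2 site), AGGTCA (a nuclear receptor half-site), the estrogen response palindrome, AGAACA (a progesterone and glucocorticoid receptor half-site), AGGAAG (ETS factors) and TATAAA (the TATA box).
Prap1, chr7:140093146-140093395, plus strand: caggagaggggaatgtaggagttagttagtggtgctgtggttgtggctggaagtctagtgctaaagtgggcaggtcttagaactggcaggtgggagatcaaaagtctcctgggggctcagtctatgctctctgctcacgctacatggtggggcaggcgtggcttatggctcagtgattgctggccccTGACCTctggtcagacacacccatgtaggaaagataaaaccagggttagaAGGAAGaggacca
Muc1, chr3:89228806-89229055, plus strand: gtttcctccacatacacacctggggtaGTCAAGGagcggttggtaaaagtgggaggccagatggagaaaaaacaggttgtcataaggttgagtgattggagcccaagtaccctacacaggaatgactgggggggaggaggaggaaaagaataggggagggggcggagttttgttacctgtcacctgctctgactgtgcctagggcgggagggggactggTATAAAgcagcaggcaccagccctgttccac
Muc20, chr16:32797436-32797685, minus strand: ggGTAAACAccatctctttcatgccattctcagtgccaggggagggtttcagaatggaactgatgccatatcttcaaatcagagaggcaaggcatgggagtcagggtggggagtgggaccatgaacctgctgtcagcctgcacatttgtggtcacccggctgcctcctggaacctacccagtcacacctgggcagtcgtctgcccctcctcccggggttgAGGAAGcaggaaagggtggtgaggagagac
Prap1 holds a half-site at bases 63 to 58 before the start, written as its reverse complement, and an ETS match at bases 13 to 8. Muc1 holds the FOXL2 letters at bases 223 to 217 and a TATA box at bases 31 to 26. Muc20 holds the forkhead letters, as their reverse complement, at bases 248 to 242 and an ETS match at bases 30 to 25. Muc4, not printed, holds a TATA box alone. Of 32851 regions of this length, 3.17% hold the forkhead letters, 2.75% the FOXL2 letters, 14.0% the half-site, 0.0639% the palindrome, 16.1% AGAACA, 29.5% the ETS letters and 12.4% the TATA box. The forkhead and FOXL2 letters share no bases with another match in these regions. A match describes letters only, and the sites were not tested.

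In the CLCA family, which lies in a cluster on chromosome 3 with Clca1, 2 of 7 other genes in the table were tested. They went opposite ways, beside 16.7% higher and 23.9% lower over all tested genes. Clca3a1 rose from 1.74 ± 0.399 to 7.31 ± 0.509 FPKM, a log2 difference of 1.61 (SE 0.12; limma, Benjamini-Hochberg adjusted p 0.000168). Clca2 fell from 2.0 ± 0.511 to 0.499 ± 0.0575 FPKM, a log2 difference of -0.99 (SE 0.13; limma, Benjamini-Hochberg adjusted p 0.00139). Neither came near the 523 FPKM of Clca1 in PFx, and the PFx libraries of Clca3a1 lay close together, between 6.55 and 7.67 FPKM. Among controls Clca3a1 was highest in PCx 4, at 2.09 FPKM, where the tested members were lowest. CLCA genes resemble each other in sequence, and how shared reads were assigned is not given in the sources used here. Both other FAM3 genes tested rose, less than Fam3b: Fam3a by 0.70 (SE 0.09) and Fam3c by 0.52 (SE 0.12) on the log2 scale (limma, Benjamini-Hochberg adjusted p 0.00135 and 0.0123). Relative to the epithelium list mean, with the limit of that fit given above, both calls were lost, at 0.39 and 0.20 (limma, Benjamini-Hochberg adjusted p 0.293 and 0.598).

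In the LY6 and PLAUR domain family, 5 of 10 tested genes rose and 1 fell, beside 16.7% higher and 23.9% lower over all tested genes. Ly6g6e rose from 2.74 ± 0.667 to 7.44 ± 1.17 FPKM, and Ly6k from 0.764 ± 0.0911 to 2.96 ± 1.59 FPKM. The other rises were those of Lypd6, Lypd6b and Ly6g6d. Plaur, the urokinase receptor gene, fell from 4.90 ± 0.611 to 2.02 ± 0.507 FPKM. The call of Ly6k was lost under 8 settings. Of the tested relatives on chromosome 15, where Lypd2 lies, Ly6k passed and the other three did not: Ly6d had a log2 difference of 0.48, Lynx1 of 0.41 and Ly6e of 0.06 (limma, Benjamini-Hochberg adjusted p 0.152, 0.0604 and 0.927).

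Among other mucin and mucin-like genes, 5 of 13 in the table were tested. Of these 2 fell and 0 rose, beside 23.9% lower and 16.7% higher over all tested genes. The gel-forming mucins Muc2, Muc5ac, Muc5b and Muc6 stayed at or below 0.201 FPKM in every library, and Muc13 at or below 0.09. Podxl and Emcn, sialomucins best known from podocytes and blood vessels, fell from 34.9 ± 3.28 to 12.9 ± 1.09 FPKM and from 30.1 ± 3.65 to 18.4 ± 1.58 FPKM. Their log2 differences were -1.37 and -0.68 (limma, Benjamini-Hochberg adjusted p 0.000155 and 0.00216). Cd164 and Mcam did not pass, at 0.03 and 0.37. Ovgp1 did not either, at -1.0 (SE 1.33; limma, Benjamini-Hochberg adjusted p 0.583), and without PCx 2 its difference was 0.77.

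The mucous and goblet cell list, the setting in which Clca1 is best known, had 9 of 22 genes tested, of which 1 rose and 0 fell, beside 16.7% higher and 23.9% lower over all tested genes. The median log2 difference was -0.06, beside -0.05 over all tested genes, with members on both sides of 0. The gene that rose was Klk1, a tissue kallikrein, from 0.784 ± 0.191 to 5.06 ± 0.953 FPKM. Fcgbp, a large mucus-binding protein, was at 82.2, 68.0 and 23.1 FPKM in PCx 1, 2 and 4 and at 241, 52.5, 85.9 and 145 FPKM in PFx 1 to 4. It had the members' order of libraries and overlapped between the groups (log2 difference 1.13; limma, Benjamini-Hochberg adjusted p 0.159). Agr2, a folding enzyme for mucins, had a log2 difference of 0.40 (limma, Benjamini-Hochberg adjusted p 0.360). Spdef, a goblet cell transcription factor, was below the filter, at 1.05 ± 0.741 FPKM in PCx and 0.187 ± 0.0355 FPKM in PFx.

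Of enzymes that build O-linked sugar on mucins, 6 of 17 tested genes were higher and 3 lower, beside 16.7% and 23.9% over all tested genes. Galnt5, which starts such chains, rose from 0.336 ± 0.0254 to 1.5 ± 0.348 FPKM, and Gcnt3, which branches them, from 16.1 ± 3.0 to 27.3 ± 3.75 FPKM. St3gal1, which caps them with sialic acid, fell from 18.7 ± 2.65 to 10.2 ± 0.828 FPKM. Relative to the epithelium list mean, with the same limit, the calls of Galnt5 and Gcnt3 were lost, at 0.58 and 0.41 (limma, Benjamini-Hochberg adjusted p 0.195 and 0.26).

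Clca1 is known as a gene raised by interleukin 13 in airway and gut, so type 2 cytokine genes were listed. Of 10 tested, 5 rose and 0 fell, beside 16.7% and 23.9% over all tested genes. Ccl11, the eotaxin gene, rose from 3.33 ± 1.69 to 35.8 ± 2.75 FPKM, a log2 difference of 3.15 (SE 0.22; limma, Benjamini-Hochberg adjusted p 0.000159). Arg1 and Postn rose by 3.73 (SE 0.99) and 1.38 (SE 0.34) on the log2 scale (limma, Benjamini-Hochberg adjusted p 0.0205 and 0.0143), and Il33 and Il4ra were the other 2. The call of Arg1 was lost under 3 settings, and its large rise was known when the list was made. Il13 itself was at 0 to 0.079 FPKM in all libraries, too low to compare. Retnla and Alox15 did not pass (log2 differences 0.41 and 0.85; limma, Benjamini-Hochberg adjusted p 0.355 and 0.128). Chil3, Chil4 and Ear2 stayed below 0.5 FPKM.

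Of the list of epithelial genes raised by estrogen, 8 of 16 tested rose and 1 fell, beside 16.7% and 23.9% over all tested genes. The median log2 difference was 1.25, beside -0.05. Padi1 and Padi2, peptidylarginine deiminases, rose by 3.30 (SE 0.34) and 3.05 (SE 0.28) and Ltf, lactoferrin, by 2.86 (SE 0.64) on the log2 scale (limma, Benjamini-Hochberg adjusted p 0.00056, 0.000411 and 0.0105). The call of Ltf was lost under 1 setting, the replicate block, at an adjusted p of 0.0561 (limma, Benjamini-Hochberg). The gene that fell was Ramp3, a receptor-modifying protein, and Sprr2f, a cornified envelope gene, was not called. Esr1, the estrogen receptor gene, rose by 0.55 (SE 0.11, limma, Benjamini-Hochberg adjusted p 0.00662). Relative to the epithelium list mean, with the same limit, its call was lost, at 0.23 (limma, Benjamini-Hochberg adjusted p 0.528). Of genes raised by progesterone, 0 of 11 tested rose and 7 fell, beside 16.7% and 23.9%, among them Ihh (-2.53), Acod1 (-2.28) and Hand2 (-2.18). The mean of this list was 3.17, 3.26 and 4.14 in PCx 1, 2 and 4 and 2.44 to 2.55 in PFx. PCx 4 thus stood above the other controls. Acod1 was at 1.74, 1.68 and 16.6 FPKM in PCx 1, 2 and 4, and its call was lost with the replicate block and without PFx 3 (limma, Benjamini-Hochberg adjusted p 0.0615 and 0.0519). Pgr did not pass (log2 difference -0.36; limma, Benjamini-Hochberg adjusted p 0.0845). Earlier results of these data already showed both steroid patterns.

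**Figure D4:**
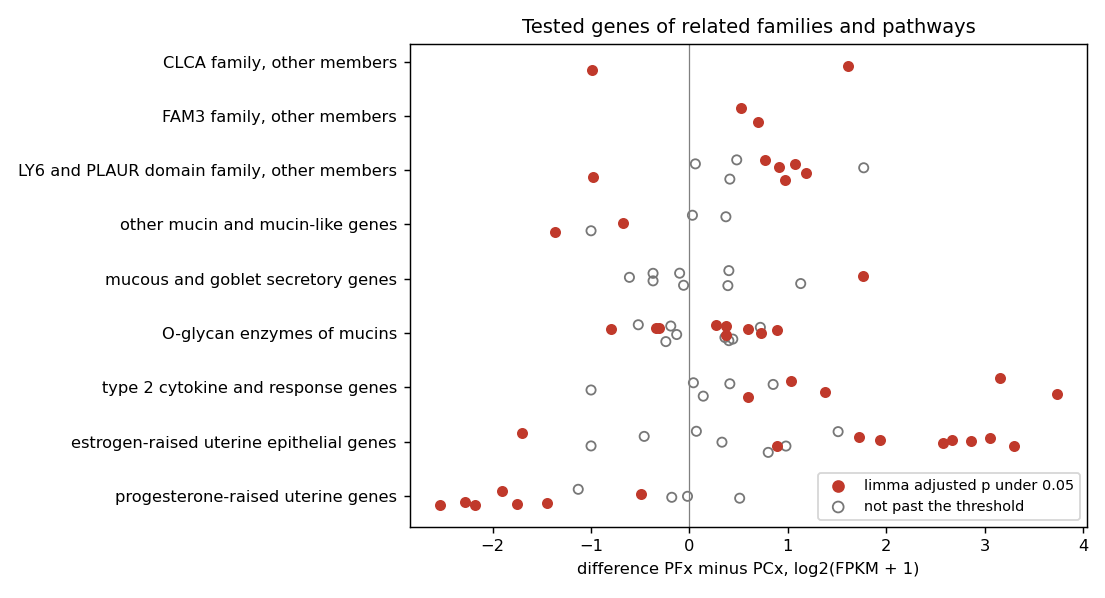
Log2(FPKM + 1) difference between PFx and PCx of each tested gene in 9 lists of relatives and related pathways. Filled points passed a limma adjusted p of 0.05 and open points did not, with vertical jitter only to separate points. Every list but FAM3 holds points on both sides of 0, and called progesterone-raised genes lie below 0.

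Markers of cells that could carry these products were read beside them. Over all tested genes, 16.7% were higher and 23.9% lower, shares that stand beside every list here. Of the simple and luminal epithelium list, 5 of 18 genes rose, among them Elf3, an epithelial ETS factor, by 1.95, and Ehf by 1.0, lost without PFx 3 (limma, Benjamini-Hochberg adjusted p 0.0558). There 3 fell, among them Calb1, by 1.97 on the log2 scale. The call of Elf3 was lost under 5 settings. Of the gland list, 0 of 6 rose and 3 fell (Cxcl15 by 2.45, Foxa2 by 1.5 and Aldh1a1 by 1.47). The stratified list had 1 of 5 higher (Krt13, by 0.68, lost under 10 settings). The oviduct and ciliated list had 2 of 4 lower (Tppp3 by 1.0 and Foxj1 by 0.74, the latter lost under 7 settings).

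Clca1 and Prap1 are also strong genes of the intestine, so intestinal markers were read. Cdx1, Cdx2, Fabp1, Sis and Alpi were at 0 FPKM in all 7 libraries, and the 19 markers summed to 5.46 to 7.37 FPKM in PCx and 6.59 to 13.1 FPKM in PFx. Of the 4 tested, 1 rose, beside 16.7% higher and 23.9% lower over all tested genes. It was Fabp6, a bile acid binding protein, from 0.150 ± 0.106 to 3.10 ± 1.43 FPKM. Of the remaining lists, beside the same shares, stroma had 1 of 9 higher (Dcn) and 4 lower and smooth muscle 2 of 7 higher. Endothelium had 1 of 7 higher and 5 lower. Leukocytes had 2 of 7 higher (Csf1r, lost under 1 setting, and Itgam, lost under 8) and fat 0 of 4 called.

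Genes most like each of the 4 strongly raised ones were named by Pearson's r of deviations from the group means in log2(FPKM + 1), over the 7 libraries. For Clca1 they were Sec61a1, Raly and Mad1l1 (r 0.997, 0.997 and 0.996), and for Prap1 Lgals9, Nrtn and Mettl9 (0.998, 0.994 and 0.993). For Lypd2 they included Ube2r2 and Rras2 (0.992 and 0.988), and for Fam3b Tomm40, Gss and Psmc2 (0.996, 0.995 and 0.994). As many as 65 to 150 genes reached an r above 0.95 with each of the 4, and all points share libraries and their tissue makeup, so the names single out little. Likeness within groups did not go with a like difference between them: Sec61a1, Raly, Lgals9, Mettl9, Ube2r2 and Rras2 were not called, and Mad1l1, Tomm40 and Psmc2 fell, while Gss rose (the calls of Psmc2 and Gss were lost under 5 and 4 settings) and Nrtn rose by 1.31 on the log2 scale (limma, Benjamini-Hochberg adjusted p 0.00991).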

How the data were processed

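RNA from whole uterus was sequenced in 7 libraries (total RNA, TRIzol, per the labels' protocols). The authors deposited 1 table of FPKM values with gene lengths, per the file headers. STAR 2.5.2b, featureCounts 1.5.0-p1 (Subread), DESeq2 1.12.4 and the build mm10 are named in the submitters' processing notes. The annotation, filters and use of strand are not given in the sources used here. Groups came from the genotype labels.

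FPKM times length gave whole multiples of 1 step per library (100% of 1653 to 1832 low values within 0.1 of a whole number), from which fragments were recovered. Values became log2(FPKM + 1), a scale that understates changes of low genes. The 13334 genes with a mean of at least 1 FPKM were fitted with limma 3.58.1 (R 4.3.3, intensity trend), with Benjamini-Hochberg adjustment over all of them and a threshold of 0.05, and 11630 were left out. The fit was tested on simulated data with independent noise for each gene, which does not check false calls where libraries deviate in many genes together. Python 3.11.15 made the tables and figures. All members, up to 3 called genes per list, and all CLCA, FAM3 and mucin genes reaching 1 FPKM in a group were named. Other genes (such as Lypd8 and Fcgbp, or family neighbours) were chosen after their values were seen. A gene among those most like Lypd2 is not reported here. The members and the 19 lists (152 distinct genes tested) were chosen with earlier results of these data known. No label says that library numbers pair animals, so a block by number was run only as an alternative. Same-numbered libraries deviated together at r 0.228, -0.0306 and -0.112 for numbers 1, 2 and 4. Alternatives covered pseudocount, filter, scaling, test, left-out libraries and a block. Intervals for counting error are not given, since PCR copies are not independent molecules.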

Additional observations from a re-analysis of the deposited data

How the results depend on the processing

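Results were recomputed under 15 alternatives and 3 chosen after seeing the data (the fat covariate, the epithelium list mean, and limma-voom on recovered fragments with library totals). The planned limma-voom with TMM scaling was not run. Clca1 and Prap1 kept their difference within the spread between replicates under all 18, and none of the 7 tested members changed direction. Across fits that each left out 1 library, Clca1 ranged from 5.47 to 5.77, Prap1 from 3.39 to 4.73, Lypd2 from 3.33 to 3.87, Fam3b from 3.21 to 3.93, Muc1 from 0.60 to 1.24, Muc4 from 0.24 to 1.26 and Muc20 from 0.65 to 1.54. Muc1 passed without PCx 1 or PFx 2, and Muc20 without PCx 1. Lypd2 moved to 4.79 and Fam3b to 4.54 with pseudocount 0.1, and to 5.06 and 4.82 with limma-voom, as low control values weigh more there. Muc20 passed at 1.22 with median centring, 1.21 with quantile normalization and 0.85 relative to the epithelium list mean, the last in a fit where p rests little on a gene's own spread. With the fat covariate Muc1 (1.28), Muc4 (1.22) and Muc20 (1.52) passed. The cause was not tested.

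Higher and lower genes numbered 2224 and 3185. With the replicate block on libraries 1, 2 and 4 they were 1368 and 1875, with 3196 of these 3243 also past the threshold in the fit of all 7 libraries. The fit of libraries 1, 2 and 4 with no block is that without PFx 3, with 1636 higher and 2339 lower. Relative to the epithelium list mean, 464 were higher, and 27 list genes against 41, counts that carry the limit of that fit given above. Higher genes ranged from 1636 to 2131 and lower from 2195 to 3197 without single libraries. Of calls, 41.1% were higher as deposited and 16.5% relative to the epithelium list mean, which moved the median of all genes from -0.05 to -0.37.

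Of 59 named relatives and checks tested, 48 passed, 28 kept the call under all alternatives and 0 of the 48 reversed. Some of those that did not pass changed sign. Cd164 ranged from -0.03 to 0.14 and Foxl2 from -0.10 to 0.28 without single libraries, and Ovgp1 from -2.62 to 0.77, the latter without PCx 2. Relative to the epithelium list mean, Cd164 was at -0.28, Foxl2 at -0.26, Raly at -0.13 and Rras2 at -0.05. Ube2r2 was at 0.01 with median centring, 0.00 with quantile normalization, 0.03 with the fat covariate, and from -0.09 to 0.01 without single libraries. Muc15 was not tested.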

Other observations

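Lypd8, a LY6 and PLAUR domain gene known from the colon surface, was at 0.028, 0.027 and 0 FPKM in PCx 1, 2 and 4 and at 15.0, 0.056, 0.251 and 5.95 FPKM in PFx 1 to 4. PFx 1 and 4 were high and PFx 2 lay close to the controls, the order seen for Prap1, and the gene did not pass (log2 difference 1.77, SE 0.91; limma, Benjamini-Hochberg adjusted p 0.157). It was chosen after its values were seen. Ly6e had the library order of Lypd8 in PFx, and the PCx values of Lypd8 were too low to order. Ly6e was at 418, 261 and 139 FPKM in PCx 1, 2 and 4. In PFx 1 to 4 it was at 350, 143, 256 and 344 FPKM, with equal group means of 273 FPKM. The secreted siderophore-binding protein Lcn2 averaged 30.3 ± 21.2 FPKM in PCx against 201 ± 148 FPKM (means with SD over 3 and 4 libraries; log2 difference 2.67, SE 0.84; limma, Benjamini-Hochberg adjusted p 0.0372).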
